A study of Mus musculus with 2 samples.

Results

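The genes described here are 5 protein-coding genes known for strong expression in the thalamus, Tnnt1, Ramp3, Prkcd, Adarb1 and Amotl1, together with AK202078, a row that carries the identifier of a cloned RNA. These 6 are among 31252 gene rows of a count table from the ventral midbrain of mice. They were chosen by gene name, selected on large or opposite differences in the counts of the 2 libraries described below. Those differences are therefore given as a description, and nothing rests on them as a test. The 2 libraries came from 2-month-old mice of an incipient congenic C57BL/6 strain, 1 labelled Ctrl and 1 labelled OE. Both genotypes carry Slc6a3-Cre, in which the dopamine transporter gene drives Cre recombinase in dopaminergic (DA) neurons, and OE mice also carry CAG-S-COUP-TFII, a transgenic allele that expresses COUP-TFII once Cre has acted. The labels name DA neurons as the cell type, but the tissue was the dissected ventral midbrain, which also holds other neurons and glia. How many mice went into each library is not given in the sources used here. With 1 library per group there is no replicate to check a difference against, and no p-value is given.

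Summed counts were 16984336 in the Ctrl-labelled library and 21326632 in the OE-labelled library. Normalized counts are counts scaled between the libraries by the TMM method. The log2 ratios are the OE-labelled library over the Ctrl-labelled library, after 0.5 normalized counts are added to each. For the genes described, fold differences are the same ratios without the log, so they include the added 0.5. The 95% intervals come from the split of a gene's 2 counts, without the 0.5, and cover counting error only. Nr2f2, the gene for COUP-TFII that this allele encodes, had 637 counts in the Ctrl-labelled library and 377 in the OE-labelled library, a log2 ratio of -1.07 (interval -1.26 to -0.88). In these bulk libraries the overexpressed gene thus goes against the labels, so every direction below belongs to the OE-labelled library and not to the genotype. Bulk Nr2f2 also comes from cells other than DA neurons, and in DA neurons isolated from other mice the study measured COUP-TFII mRNA in the direction the genotypes call for, so an exchange of labels cannot be told apart from a difference in those other cells. In bulk tissue, fewer cells of a type and less RNA per cell cannot be told apart.

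The thalamus is a diencephalic structure that borders the midbrain, and its relay neurons are glutamatergic cells that send sensory and motor signals to the cortex. Relay nuclei differ in the genes they use: Tnnt1, Necab1 and Calb2, for instance, mark different nuclei along the mediolateral axis. The products of the 5 protein-coding genes do unlike work. Tnnt1 encodes the slow skeletal form of troponin T, which anchors the troponin complex to tropomyosin. Ramp3 encodes a single-pass membrane protein that sets the ligand preference of calcitonin-type receptors. Prkcd encodes protein kinase C delta, which diacylglycerol activates without calcium. Adarb1 encodes ADAR2, the enzyme that edits adenosine to inosine in RNA such as that of the glutamate receptor subunit Gria2. Amotl1 encodes angiomotin-like 1, a scaffold of cell junctions that binds the Hippo pathway effector YAP. AK202078 is described in the study's gene table as a noncoding RNA from a cluster of small RNAs of oocytes, so it has no known tie to the thalamus, and neither library is of thalamus, so thalamic enrichment itself could not be checked in these counts.

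Promoter sequence is shown for the 3 protein-coding genes with the largest differences, so that genes which differ in the same direction can be set side by side. The windows are the 250 bases before the annotated start (RefSeq, GRCm38.p6, the build that mm10 names), printed 5′ to 3′ on the gene's strand and without bases inside the gene's annotated span. Capitals mark TATAAA, the core of a TATA box. Tnnt1 is shown at chr7:4515976-4516225 (minus strand), Ramp3 at chr11:6658283-6658505 (plus strand) and Prkcd at chr14:30626415-30626458 (minus strand).
Tnnt1: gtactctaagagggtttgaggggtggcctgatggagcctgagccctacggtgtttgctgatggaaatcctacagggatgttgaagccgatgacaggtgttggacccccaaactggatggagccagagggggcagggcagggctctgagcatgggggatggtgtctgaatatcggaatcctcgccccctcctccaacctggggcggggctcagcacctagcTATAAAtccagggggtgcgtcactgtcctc
Ramp3: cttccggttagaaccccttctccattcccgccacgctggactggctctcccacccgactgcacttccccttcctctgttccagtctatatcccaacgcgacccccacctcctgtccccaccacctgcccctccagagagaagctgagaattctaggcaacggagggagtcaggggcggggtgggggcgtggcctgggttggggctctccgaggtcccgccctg
Prkcd: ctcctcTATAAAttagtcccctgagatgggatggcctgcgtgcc

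In all, 3 motifs were searched on both strands of each whole 250-base window: AGGTCA, the core bound by COUP-TFII and other nuclear receptors, TCAAAG, the core of TCF/LEF sites, and TATAAA. The first, AGGTCA, was in none of the 6 windows of the 5 genes (Prkcd has 2 annotated starts), against 14.0% of all 32851 windows. The Amotl1 window and the second Prkcd window lie wholly inside the annotated span of their gene, so they hold no bases upstream of it. TATAAA lay 30 bases before the start of Tnnt1 and 244 bases before the first start of Prkcd, against 12.4% of all windows. That Prkcd start lies inside the gene's annotated span. Only 44 bases of its window lie outside the span, and the TATAAA is among them. TCAAAG was in the same Prkcd window, 139 bases before the start and inside the annotated span, and in 13.8% of all windows. The matches did not overlap. In base composition the genes were unlike, with G or C at 59.2% of the bases in Tnnt1, 65.2% in Ramp3 and 72.0% in Adarb1, against a median of 52.4%. Tnnt1 had 6 CpG dinucleotides in its window, equal to the median of 6 over all windows, whereas Adarb1 had 40, more than 98.7% of windows. Amotl1 had 15 CpG dinucleotides and Ramp3 13, and the 2 Prkcd windows had 18 and 1. A match here is a run of letters and not a shown binding site.

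Of the 6 genes, 4 were lower in the OE-labelled library by more than log2 1, and 0 were higher by as much. Over all 15246 genes that averaged 10 counts or more (the tested genes), 1.28% were lower and 1.53% higher by that threshold. By more than log2 0.2, the threshold the study used, 5 of the 6 were lower and 1 was higher, against 16.6% and 17.9% of the tested genes. Because the genes were picked from this contrast, nothing is read from these counts.

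Tnnt1 had 251 counts in the Ctrl-labelled library and 20 in the OE-labelled library. Its normalized count was 15.2-fold lower in the latter (interval 9.88 to 26.0), a log2 ratio of -3.93. The normalized count of Tnnt1 was exceeded by 59.1% of tested genes in the Ctrl-labelled library and by 94.4% in the OE-labelled library. Ramp3 showed a similarly large gap, with 259 and 28 counts. It was 11.3-fold lower (interval 7.77 to 17.6), a log2 ratio of -3.50. AK202078 showed the widest gap, with estimated counts of 270.2 and 15.8, a log2 ratio of -4.37 (interval -5.22 to -3.66). Unlike the other 5 rows, AK202078 had counts that are not whole numbers, which arise when RSEM shares reads between similar transcripts, so its values are less certain than the interval says.

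Prkcd had the most counts of the 4 strongly lower rows and the smallest difference among them. It had 1156 counts in the Ctrl-labelled library and 262 in the OE-labelled library, a 5.47-fold lower normalized count (interval 4.79 to 6.29) and a log2 ratio of -2.45. Its log2 interval, from -2.65 to -2.26, did not overlap that of Tnnt1 (-4.70 to -3.30), Ramp3 (-4.14 to -2.96) or AK202078, whereas the intervals of Tnnt1 and Ramp3 overlapped each other, and Tnnt1 overlapped AK202078. Among the 11735 genes averaging 100 counts or more, AK202078, Tnnt1 and Ramp3 held the 3 lowest fold changes, in that order. Prkcd ranked 10 from the bottom. AK202078, Tnnt1 and Ramp3 reached that mean only through the Ctrl-labelled library, where they were high. Among all tested genes they ranked 10, 12 and 14 from the bottom, and Prkcd ranked 28. Because the genes were chosen for these differences, nothing is read from the ranks.

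The remaining pair behaved differently, and in opposite directions. Adarb1 had the most counts of the 6 rows, with 5540 counts in the Ctrl-labelled library and 5432 in the OE-labelled library. After scaling for depth it was 1.27-fold lower (interval 1.22 to 1.32), a log2 ratio of -0.34, and 8.63% of tested genes had a lower value. Amotl1 was the only one of the 6 to be higher in the OE-labelled library. Its counts were 1907 and 2763, which is 1.17-fold higher after scaling (interval 1.10 to 1.24), a log2 ratio of 0.22. Of the tested genes, 84.0% had a lower value. Both intervals excluded 1. The plot of the 6 genes by library shows the split between 4 rows that differed by several fold and 2 whose difference was small.

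**Figure D1:**
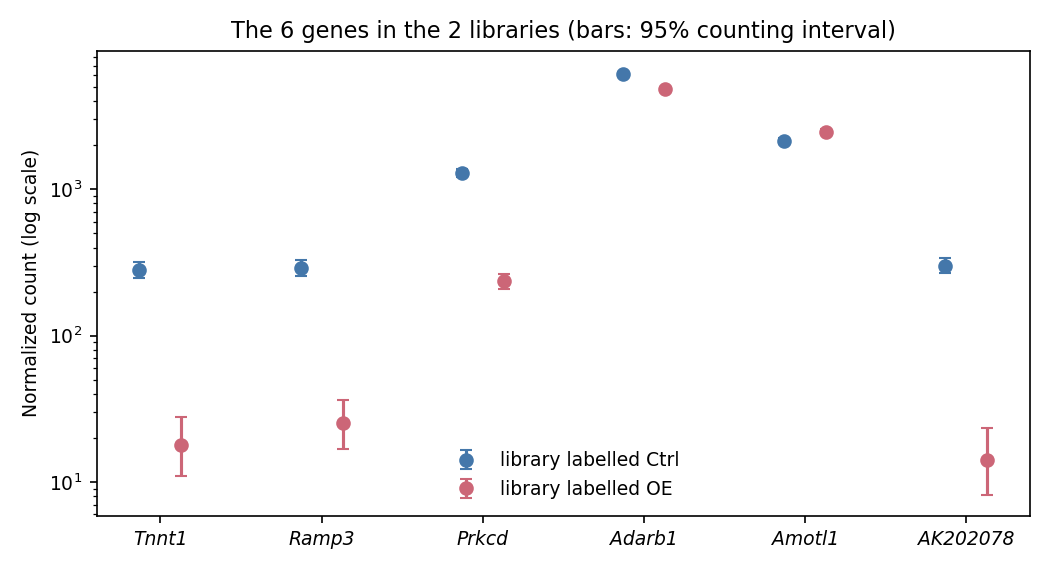
Normalized counts (log axis) of the 6 genes in the Ctrl-labelled library and the OE-labelled library, 1 library each, with exact 95% Poisson intervals that cover counting error only. Normalized counts were 279.8 and 17.9 for Tnnt1, 289 and 25.1 for Ramp3, 301 and 14.1 for AK202078 and 1289 and 235 for Prkcd, while the values of the 2 libraries lay closer for Adarb1 (6175 and 4873) and for Amotl1 (2126 and 2479).

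Per kilobase of transcript, which allows levels to be compared between genes, Adarb1 was the highest of the 5 protein-coding genes in the Ctrl-labelled library, with 938 normalized counts per kilobase. Amotl1 followed with 698, Prkcd with 582, Tnnt1 with 356 and Ramp3 with 234. No neighbours in this order had overlapping counting intervals. In the OE-labelled library, Amotl1 came first with 814 normalized counts per kilobase and Adarb1 second with 740. Prkcd followed at 106, and Tnnt1 and Ramp3, at 22.8 and 20.4, had overlapping intervals. The lengths are medians over annotated coding transcripts (GENCODE M21), so these levels carry the uncertainty of which transcript is used. AK202078 had no length there.

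**Figure D2:**
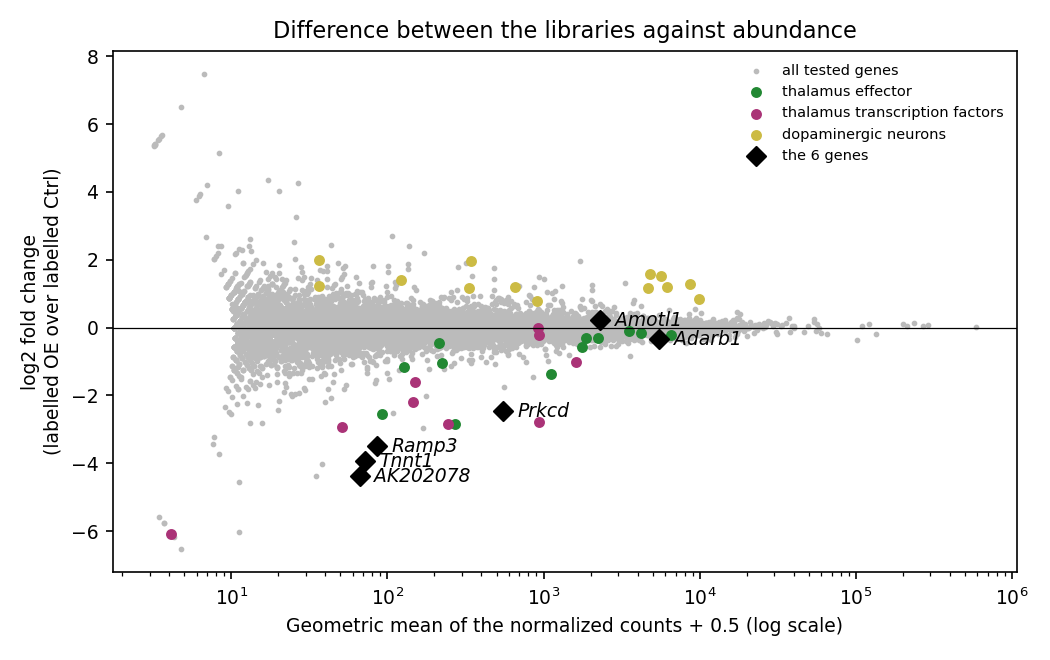
log2 ratio (OE-labelled library over Ctrl-labelled library) against the geometric mean of the normalized counts for all 15246 tested genes, with the 6 genes, 2 lists of thalamic genes and the markers of DA neurons marked. Tnnt1, Ramp3, AK202078 and Prkcd lie below the grey cloud at their abundance and Adarb1 and Amotl1 within it; the lowest point of the transcription factors is Gbx2, which had 0 counts in the OE-labelled library, so that its height is set by the added 0.5.

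By the nearest log2 ratio among genes averaging 100 counts or more, the 3 lowest rows were mostly each other's nearest. That follows from their holding the 3 lowest ranks, so nothing is read from it. Tnnt1 was nearest to Ramp3 and AK202078, with differences of 0.43 and 0.44 on the log2 scale. Outside the 6, Ramp3 was nearest to Ttr, the gene for transthyretin, which carries thyroxine and is made by the choroid plexus. Ttr had 426 and 67 counts, a log2 ratio of -2.97. Prkcd was nearest to Slc17a7 (231 and 50 counts, log2 ratio -2.51), which encodes the vesicular glutamate transporter VGLUT1, and to Vipr2 (199 and 42 counts, -2.54), a receptor for vasoactive intestinal peptide. Likeness over 2 libraries is a single ratio, and says no more than that.

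Other thalamic genes were compared by a list of 12 genes that, like these, are not transcription factors. Of these 12, 10 were lower in the OE-labelled library by more than log2 0.2 and 0 higher, against 16.6% and 17.9% of all tested genes. Their median log2 ratio was -0.51, against 0.0046 over all tested genes. By more than log2 1, 5 of the 12 were lower, against 1.28% of tested genes: Rgs16, Vipr2, Plekhg1, Synpo2 and Slitrk6. Rgs16, a brake on G-protein signalling, went from 647 to 111 counts, a log2 ratio of -2.85 (interval -3.16 to -2.56), which overlapped the interval of Prkcd. The genes of the list with the most counts differed far less. Slc17a6, the gene for the vesicular glutamate transporter VGLUT2 that relay neurons share with many midbrain neurons, had 6340 and 6727 counts and a log2 ratio of -0.23 (interval -0.28 to -0.18). Cacna1g, a T-type calcium channel gene of bursting neurons, changed by -0.31 (interval -0.40 to -0.23), close to Adarb1.

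The 3 genes that mark different relay nuclei did not differ alike between the libraries. Against -3.93 for Tnnt1, the calcium-binding protein genes Necab1 and Calb2 changed by -0.30 (interval -0.39 to -0.21) and -0.17 (interval -0.23 to -0.11). Necab1 had 1854 counts in the Ctrl-labelled library and 1870 in the OE-labelled library, and Calb2 had 4006 and 4423. Before scaling for depth, the counts of both genes were thus of like size in the 2 libraries, which those of Tnnt1 were not. After scaling, both genes were slightly lower in the OE-labelled library. Which cells the counts of the 3 genes came from was not tested, so no difference between relay nuclei is read from them.

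Among 9 thalamic transcription factor genes, 8 were lower by more than log2 0.2 (16.6% of all tested genes) and 7 by more than log2 1 (1.28%). At either threshold 0 were higher (17.9% and 1.53% of tested genes), and the median log2 ratio was -2.21. Tcf7l2, a factor of thalamic and habenular neurons, had 2204 and 398 counts, a log2 ratio of -2.78 (interval -2.94 to -2.63). This lay close to Prkcd. Gbx2, which patterns the thalamus, had 29.9 counts in the Ctrl-labelled library and 0 in the OE-labelled library, and so was at least 12.4-fold lower when 3 counts are set as the limit in the latter. With Gbx2 at that bound the median of the list was again -2.21. Zfhx3 and Foxp2 stood apart from the rest, at -0.021 and -0.23. Both lists, like the 6 genes, were put together with earlier results of these data known, so their direction is not independent support.

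Each protein-coding gene was next set beside genes of its own pathway, which are not tied to the thalamus. The counts of these genes past log2 0.2 stand beside 16.6% of all tested genes lower and 17.9% higher. Nothing is read from counts near those shares. For Tnnt1, 13 other genes of the striated muscle thin filament were listed and 7 were tested. By more than log2 0.2, 3 were lower and 0 higher, with a median of -0.048. Tnnt2, the cardiac troponin T, had 35 and 25 counts and a log2 ratio of -0.79 (interval -1.60 to -0.017). The partners that complete a slow-muscle troponin, Tnni1 and Tnnc1, had 92 and 89 counts and 28 and 20 counts, and both intervals included 0. Tpm1 and Tpm3, tropomyosins that are also used outside muscle, had 1455 and 1766 counts and 1503 and 1924 counts and log2 ratios of -0.034 and 0.043. Of the other skeletal muscle genes listed, Tnnc2 and Ckm were at 0 in both libraries, Tnni2 had 1 and 0 counts, Tnnt3 had 0 and 3, and Acta1, the skeletal actin, had 10 and 9. The myosin heavy chain gene Myh4 was higher in the OE-labelled library, with 3 and 18 counts and a log2 ratio of 2.11 (interval 0.50 to 4.68). Myh7, the heavy chain of slow and cardiac muscle, had 109.7 and 163 counts and a log2 ratio of 0.25 (interval -0.10 to 0.62). Below the count filter, Myh1 had 4.5 and 7.78 counts (log2 ratio 0.44) and Myh2 had 4.5 and 2.22 (-1.15). Both of their intervals included 0. Of these myosin genes, Myh2 thus ran in the direction of Tnnt1 and the others did not. Most of these skeletal muscle genes had few counts, and a muscle source for Tnnt1 was not tested.

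Ramp3 is 1 of 3 RAMP genes, and the other two did not share its difference. Ramp1, which turns the calcitonin receptor-like receptor Calcrl into the receptor for CGRP, had 723 and 865 counts, a log2 ratio of -0.054 (interval -0.20 to 0.090). Ramp2, which makes an adrenomedullin receptor with Calcrl, changed by -0.11 (interval -0.36 to 0.14). Its counts were 252.9 and 291. Of the receptors, Calcrl had 190 and 183 counts, a log2 ratio of -0.37 (interval -0.67 to -0.067), and Calcr, the calcitonin receptor that forms amylin receptors with RAMPs, had 24 and 56 counts, a log2 ratio of 0.90 (interval 0.20 to 1.66). Among the ligands, Calca, the gene for calcitonin and CGRP, was lower, at 121 and 75 counts (-0.998, interval -1.44 to -0.58). Calcb, also a CGRP gene, had 8 and 19 counts and a log2 ratio of 0.90, with an interval (-0.32 to 2.34) that included 0. Adm (adrenomedullin) had 38 and 61 counts and an interval that included 0, and Adm2 and Iapp were at 0 in both libraries. Of the 10 genes listed, 8 were tested, 2 were lower and 3 higher by more than log2 0.2, and their median was 0.023.

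Protein kinase C genes differed in both directions. Prkca, a calcium-dependent member, was higher in the OE-labelled library, with 1626 and 3260 counts and a log2 ratio of 0.69 (interval 0.60 to 0.78). Prkcz, an atypical member that needs neither calcium nor diacylglycerol, was lower, with 2618 and 2813 counts and a log2 ratio of -0.21 (interval -0.29 to -0.13). The closest relatives of Prkcd in activation, the calcium-independent Prkce, Prkch and Prkcq, had log2 ratios of -0.047, -0.32 and -0.20, and the intervals of the first 2 included 0. Summed over the 7 Prkc genes listed beside Prkcd, normalized counts were 14775 in the Ctrl-labelled library and 15157 in the OE-labelled library. The whole list, with 3 protein kinase D genes and the substrate Marcks, had 3 of 11 lower and 1 higher by more than log2 0.2 and a median of -0.047.

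For Adarb1, the other editing enzyme Adar had 4358 and 5293 counts, a log2 ratio of -0.033 (interval -0.091 to 0.025), and the brain-restricted Adarb2, for which editing activity is not known, changed by -0.13 (interval -0.28 to 0.030). The interval of Adarb1, -0.40 to -0.29, lay below both of theirs. Among 12 genes whose RNA is edited, Gria2 had 5298 and 6089 counts and a log2 ratio of -0.11 (interval -0.17 to -0.059), and Flna, a filamin, was the lowest at -0.32 (interval -0.42 to -0.23). Cacna1d, a calcium channel gene, was the highest at 0.19 (interval 0.043 to 0.34). Of the 14 genes in the list, 1 was lower and 0 higher by more than log2 0.2, with a median of -0.060. Editing itself cannot be read from gene counts and was not analysed here.

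For Amotl1, the other angiomotin genes lay nearer to 0. Amot had 870 and 1145 counts and a log2 ratio of 0.083 (interval -0.045 to 0.21), and Amotl2 had 539 and 679 counts and 0.020 (interval -0.15 to 0.19). Both intervals included 0 and also overlapped that of Amotl1, 0.14 to 0.31. Yap1, the YAP gene, was at 0.22 (interval -0.032 to 0.47), and its paralog Wwtr1, the gene for TAZ, at -0.42 (interval -0.64 to -0.20). Ctgf and Cyr61, targets of YAP, had 99 and 148 counts and 34 and 57 counts, and the intervals of both included 0. Of the 22 names listed, 21 were found and tested, 3 were lower and 5 higher by more than log2 0.2, and the median was 0.041.

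**Figure D3:**
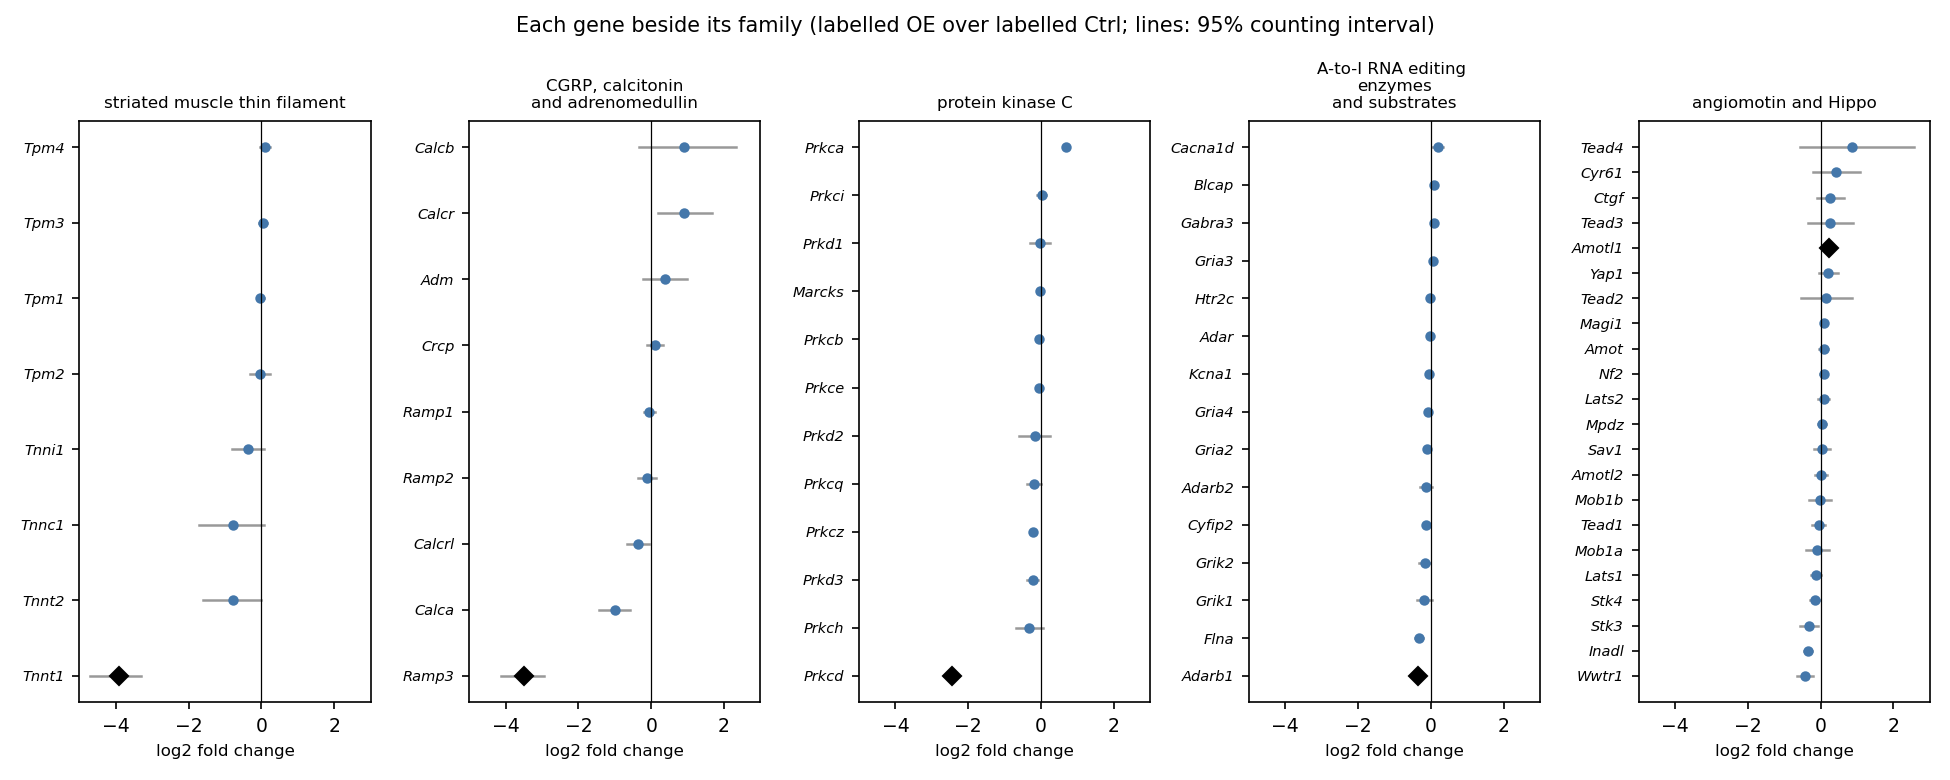
log2 ratio (OE-labelled library over Ctrl-labelled library) with its 95% counting interval for each of the 5 protein-coding genes (black diamonds) and the tested genes listed with it (blue points). Tnnt1, Ramp3 and Prkcd lie below every listed relative, Adarb1 lies close to Flna at the bottom of its list, and Amotl1 lies within its list.

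In the genome the 5 genes lie on different chromosomes. By RefSeq on GRCm38.p6, Tnnt1 spans chr7:4504569-4515975, Ramp3 chr11:6658506-6677478, Prkcd chr14:30595353-30626414, Adarb1 chr10:77290727-77418292 and Amotl1 chr9:14541966-14662974. For each, the nearest 2 tested genes on either side were looked up. Of these 20 neighbours, 0 were lower or higher by more than log2 1, 3 were lower and 5 higher by more than log2 0.2, and their log2 ratios ran from -0.55 to 0.75 with a median of 0.031. Beside Tnnt1, Ppp1r12c, a regulatory subunit gene of a protein phosphatase that lies 0.806 kb away, had 1337 and 1576 counts and a log2 ratio of -0.076 (interval -0.18 to 0.030). Beside Prkcd, the transketolase gene Tkt, at 20.6 kb, had 3547 and 4460 counts and 0.017 (interval -0.047 to 0.081). Other neighbours had intervals that left out 0. Of those that were lower, Adcy1, an adenylyl cyclase gene 386 kb from Ramp3, had 2850 and 2734 counts. Its log2 ratio was -0.37 (interval -0.45 to -0.30). Sfmbt1, 88.4 kb from Prkcd, had 783 and 814 counts and -0.26 (interval -0.40 to -0.11). The higher ones were Nacad (1265 and 1787 counts, 0.19, interval 0.080 to 0.29) and Igfbp3 beside Ramp3, Syt5 beside Tnnt1, Fam207a beside Adarb1 and Fut4 beside Amotl1. All these neighbours were named after their values were seen. Ramp3, Prkcd and Amotl1 overlap predicted genes (Gm11978, Gm52147 and Gm34263) that were not among the tested rows. The libraries were stranded, but whether the counting used strand is not given in the sources used here.

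Markers of some cell types also differed between the libraries, in both directions, and their part in the differences of the 6 genes was not tested. All 13 listed markers of DA neurons were higher in the OE-labelled library, with a median log2 ratio of 1.23 and summed normalized counts of 27864 and 64684, and none was at 0. Th, the rate-limiting enzyme of dopamine synthesis, had 2499 and 9354 counts. Oligodendrocyte markers had a median of -0.32, which was close to the value of Adarb1, and summed normalized counts of 381952 and 319290. By more than log2 0.2, 6 of 8 were lower and 0 higher. Over all tested genes, 16.6% were lower and 17.9% higher by that threshold, which is also used for the lists below. Astrocyte markers had a median of -0.057, with 1 of 8 lower and 0 higher by more than log2 0.2 and summed normalized counts of 65071 and 60120. Microglial markers had a median of -0.11, with 3 of 8 lower and sums of 6116 and 5027, and endothelial markers -0.18, with 3 of 6 lower and sums of 4789 and 4173. Pan-neuronal markers went slightly the other way, with a median of 0.19, 4 of 8 higher and 1 lower, and sums of 116957 and 130971. Choroid plexus markers, Ttr among them, had summed normalized counts of 654 and 206, with 4 of 7 tested and a median of -0.39, and without Ttr the others had at most 90 counts in either library. For striated and smooth muscle, 5 of 8 were tested, with a median of -0.62 and summed normalized counts of 1274 and 830. The smooth muscle genes Acta2, Myh11 and Tagln gave most of those counts.

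**Figure D4:**
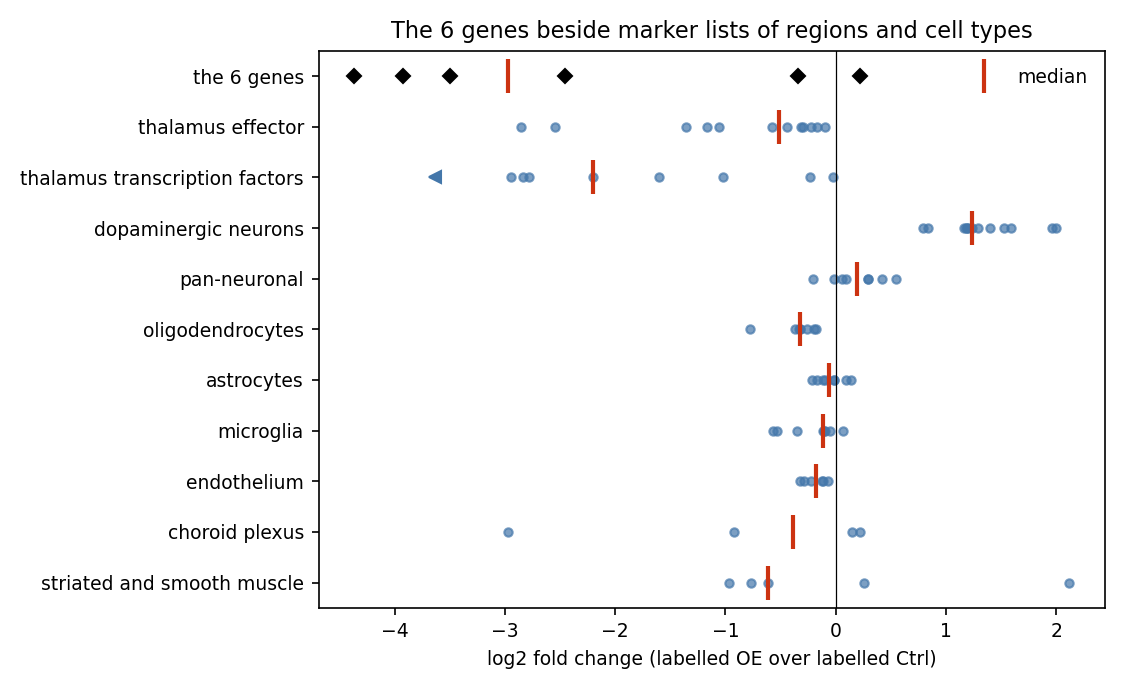
log2 ratio (OE-labelled library over Ctrl-labelled library) of the 6 genes (black diamonds) and of the tested genes in 10 marker lists (blue points), with red bars at the medians and a triangle at the bound for Gbx2. The 6 genes have a median of -2.97 and span from -4.37 to 0.22, and no list other than the thalamic ones and choroid plexus holds a tested gene below -1.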

How the data were processed

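RNA from dissected ventral midbrain was sent by the authors to a sequencing company, which prepared stranded polyA libraries, sequenced both ends over 50 bp and ran its in-house pipeline. The authors deposited RSEM expected counts (estimated reads per gene), not scaled between libraries. The submitters' processing notes name mm10. The aligner, RSEM version and annotation are not given in the sources used here. Of the values, 95.4% were whole.

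Each library was assigned by the number shared by its column and its sample title. Counts were scaled by TMM (edgeR 4.0.16, R 4.3.3) to a common geometric mean, with a pseudocount of 0.5, and genes averaging 10 counts or more were tested by fold alone. Intervals are 95% Clopper-Pearson on rounded counts, and Poisson for single counts (scipy 1.17.1). A fold against 0 counts is a bound at 3 counts. Intervals and fold changes were tested on simulated counts with counting error only, which do not cover differences between mice or dissections. The genes and lists were chosen with earlier results of these data known. Named genes are the 6 genes, Nr2f2, genes of 15 lists and, for each of the 6 past log2 1, the 2 nearest in fold change among genes averaging 100 counts or more. Genes beside the 5 protein-coding genes in the genome and AK138361 lie outside that rule and were named after their values were seen. Alternatives were scaling by DESeq2 1.42.0 size factors, total counts or upper quartile, a pseudocount of 5, and other count minimums. Figures used matplotlib 3.10.9. Of the listed genes, 1 is not reported here and was left out of its list.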

Additional observations from a re-analysis of the deposited data

How the results depend on the processing

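No paired analysis was possible because there was a single library per group, and for the same reason no library could be left out. The 6 genes kept their direction, and stayed inside their counting intervals, under the 3 other scalings and the pseudocount of 5. Their log2 ratios ran from -3.94 to -3.63 for Tnnt1, -3.51 to -3.29 for Ramp3, -4.38 to -4.00 for AK202078, -2.47 to -2.43 for Prkcd, -0.36 to -0.34 for Adarb1 and 0.21 to 0.22 for Amotl1. Depth limits Tnnt1, Ramp3 and AK202078 most, which had 15.8 to 28 counts in the OE-labelled library. Under every scaling the median over all genes shifted by less than 0.1.

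Counts over all genes moved with the filter, which by construction changes how many genes can pass. With any count, 4497 were lower and 4513 higher by more than log2 0.2, and 1294 and 1378 by more than log2 1, against 2536, 2723, 195 and 233 in the report's setting. With a mean of at least 100 counts they were 1377, 1522, 30 and 44, and with a pseudocount of 5, 124 were lower by more than log2 1. Fewer or more members also moved some list medians: averaging 100 counts or more, thalamic transcription factors to -1.60, calcitonin-type signalling genes to -0.082 and choroid plexus to -2.97 (Ttr alone), and with any count choroid plexus to -0.92. Of 180 counts of list members under alternatives, 169 stayed within 1.5 times the reported count and 11 did not.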

Other observations

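Rows named by a cDNA identifier like that of AK202078 (2 letters and 6 digits) were compared with the rest after their values were seen. Of 724 such tested rows, 26 (3.59%) were lower in the OE-labelled library by more than log2 1 and 43 (5.94%) were higher, against 1.16% and 1.31% of the other 14522 tested rows. Counts were not whole in at least 1 library for 37.2% of the former and 7.20% of the latter. These sets were not matched for abundance, on which the number of rows past log2 1 depends, so nothing is read from the shares. AK138361, with 138.1 and 10 counts, was the row of this kind whose log2 ratio, -4.03 (interval -5.19 to -3.18), lay nearest to that of AK202078.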
